A study of Mus musculus with 30 samples.

Results

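The genes described here are 34 genes of macrophages and of homeostatic microglia, the resident macrophages of the brain and retina. They were taken from a fixed list of symbols, which was chosen with earlier results of these data known. Each symbol matched 1 row of the deposited tables of normalized counts, so that 34 of the 55573 genes in each table are covered, in 2 tissues and 4 genotypes. By role they are 6 lineage regulators and growth factor receptors (Csf1r, Spi1, Irf8, Runx1, Ikzf1 and Sall1), 8 surface genes of homeostatic microglia (Cx3cr1, P2ry12, P2ry13, P2ry6, Tmem119, Siglech, Gpr34 and Fcrls), 7 leukocyte adhesion and surface genes (Ptprc, Itgam, Itgb2, Adgre1, Cd53, Cd84 and Lair1), 4 Fc receptor genes (Fcgr1, Fcgr3, Fcgr4 and Fcer1g), 3 co-receptors of lipopolysaccharide and Toll-like receptor signaling (Cd14, Cd180 and Ly86), 4 genes of the cytoskeleton, signaling and lysozyme (Aif1, Coro1a, Hcls1 and Lyz2) and 2 genes of inflammatory monocytes (Ccr2 and Ly6c2).

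Macrophages arise under the growth factor receptor CSF1R and the transcription factor PU.1, which Spi1 encodes. Microglia keep a resting identity marked by P2RY12, TMEM119 and CX3CR1, whereas monocytes that enter a tissue carry CCR2 and Ly6C. The RPE (retinal pigment epithelium), a pigmented layer behind the photoreceptors, takes up their shed tips with the receptor tyrosine kinase MERTK, which macrophages also use to take up dying cells. Microglia reside in the neural retina and can move toward the RPE when photoreceptors are damaged.

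RNA was sequenced from the RPE of mice at postnatal day 25 (P25), with 6 libraries of B6 WT, 6 of Mertk-/-V1, 3 of Mertk-/-V2 and 3 of Mertk-/-V3 mice, and from bone marrow-derived macrophages (BMDMs) at day 7 of culture in L929-conditioned medium, with 3 libraries of each genotype. B6 WT mice were C57BL/6J. Mertk-/-V1 mice lack exon 17 of Mertk, retain a neomycin cassette, were made in 129P2 embryonic stem cells and were backcrossed to C57BL/6J, but keep 129P2 alleles along a stretch of chromosome 2 around Mertk. Mertk-/-V2 mice lack exon 18 after germline excision of a floxed allele of C57BL/6NJ origin by tamoxifen-induced Rosa26ERT2Cre, which was bred out, and Mertk-/-V3 mice lack exons 3 and 4 after genome editing in C57BL/6NJ eggs, so that each knockout differs from B6 WT in more than Mertk. RPE was shaken off the posterior eyecup, a bulk preparation in which other cells of the eye are also present. Each library came from a different animal according to the study.

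Values are normalized counts, the reads of a gene divided by 1 size factor of DESeq2 per library, and a log2 fold change (± SE) is the difference of group means of log2(normalized count + 1), a scale that understates the change of genes with low counts. Totals on genes ranged from 14137666 to 34124049 reads in RPE and from 16629659 to 25653814 in BMDMs. As a check of the labels, RPE of B6 WT held 2638 to 3924 normalized counts of Mertk itself, which was lower in Mertk-/-V1 (919 to 1717) and Mertk-/-V3 (444 to 1106), but not in the RPE libraries labelled Mertk-/-V2 (3565 to 5311), where a count over the whole gene cannot show the loss of exon 18 alone, and BMDMs had the same order. The RPE libraries held the RPE marker genes (Rpe65 at 13235 to 105278), while 7 rod photoreceptor genes summed to 29019 to 307878 in B6 WT and 54877 to 792968 in Mertk-/-V1, with 50777 to 371481 in Mertk-/-V3 and 124217 to 209356 in Mertk-/-V2. Replicates 5 and 6 of Mertk-/-V1 and replicate 1 of Mertk-/-V3 had the highest rod and the lowest RPE marker sums, and Mertk-/-V1 replicate 3 had the highest sum of 10 neutrophil genes (2849, against 93.3 to 1349 in the other 17 libraries), with S100a8 at 359. Among the B6 WT and Mertk-/-V1 libraries of RPE, replicates 1 to 3 also stood apart from replicates 4 to 6, since 40.6% of the 18832 genes tested differed between them at an adjusted p under 0.05. What these sets are, the labels do not say.

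In B6 WT mice, 31 of the 33 genes with reads in both tissues had a higher RPM (reads of the gene scaled to a common total of reads on genes) in BMDMs than in RPE, with a median ratio of 78.3. Among these 31 the ratio was lowest for Cx3cr1 (4.62), Csf1r (4.62), Runx1 (4.75), Ccr2 (6.04) and Itgam (7.37). What cells gave their reads in RPE was not tested. The tables were normalized separately, so these levels were computed from the recovered reads and given no test. The exceptions were Tmem119, a microglial membrane protein of unknown function, with 6.09 RPM in RPE and 0.687 in BMDMs, and Siglech, a sialic acid-binding lectin of microglia, with 0.777 and 0.0743. Sall1, a transcription factor that distinguishes microglia from other macrophages, had 2.08 RPM in RPE and 0 reads in all 12 BMDM libraries, where a count of 0 allows up to 3 reads and covers counting error only. Ly6c2 in RPE and Sall1 and Siglech in BMDMs had a mean normalized count under 10 and were not tested, which left 33 genes in RPE and 32 in BMDMs.

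**Figure D1:**
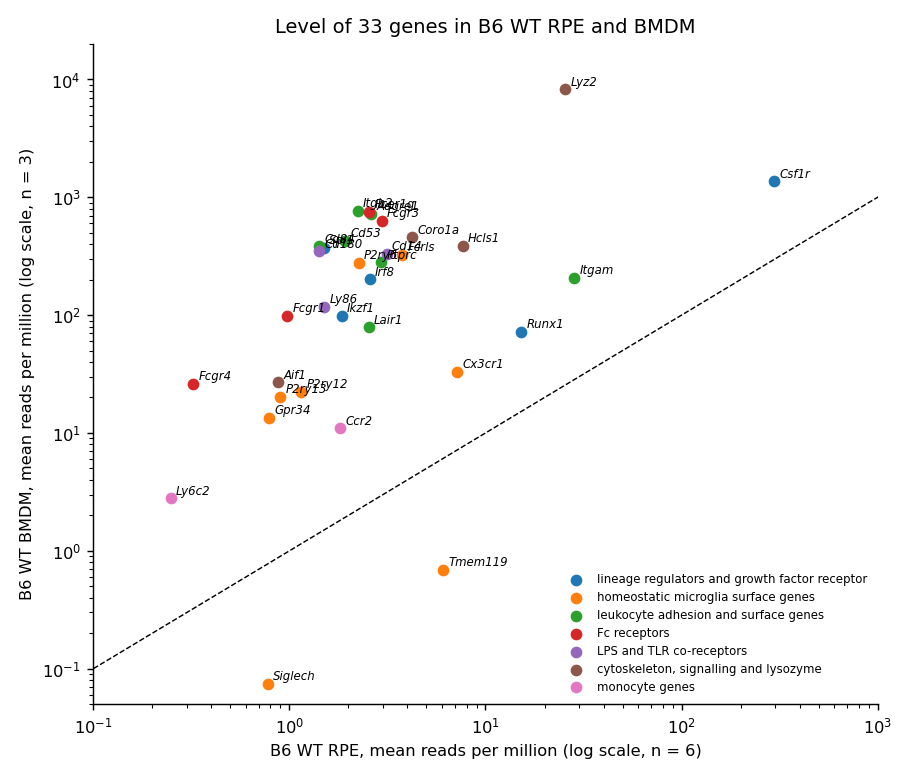
Mean RPM of 33 genes in B6 WT RPE (x axis, log scale, n = 6) and B6 WT BMDMs (y axis, log scale, n = 3), colored by role; the dashed line marks equal levels. Points above the line, 31 of 33, were higher in BMDMs, while Tmem119 and Siglech lie below it; Sall1 had 0 reads in BMDMs and is not drawn.

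Compared per length (RPKM, the RPM divided by the merged exon length in kilobases), Csf1r stood first among the 34 genes in B6 WT RPE at 51.3, followed by Lyz2, the macrophage lysozyme, at 19.4 and Itgam, the CD11b integrin chain, at 5.62, while Cx3cr1 was at 1.59, P2ry12 at 0.450 and Ptprc, the leukocyte antigen CD45, at 0.160. In B6 WT BMDMs Lyz2 stood first at 6253 and Fcer1g, the signaling chain shared by Fc receptors, second at 861, and Csf1r was sixth at 237. The exons of Csf1r overlap those of Hmgxb3 on the opposite strand, as P2ry12 does with Med12l, Cd180 with Mast4 and Coro1a with Bola2, and since no source used here says that strand was used in counting, reads of these pairs cannot be told apart. Over the RPE libraries the mean normalized count was 867 for Hmgxb3, 448 for Med12l, 1169 for Mast4 and 169 for Bola2. Gpr34 lies within Cask (1555) and P2ry13 within Med12l, on the opposite strand and without overlap of exons.

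In RPE of Mertk-/-V1 mice, 5 of the 33 genes tested rose against B6 WT at an adjusted p under 0.05 and 0 fell (0.287% of all 18832 genes tested rose). They were the Fc receptor genes Fcer1g and Fcgr1, the leukocyte surface genes Itgb2 and Cd53 and the lineage regulator Irf8, with folds of 1.84 to 2.34 from the log2 scale. The differences of 31 of the 33 genes were above 0, with a median of 0.80 on the log2 scale against 0.02 over all genes tested, and 24 genes, all of them higher, had an unadjusted p under 0.05, as did in either direction 6.81% of all genes. In 10 genes every Mertk-/-V1 library lay above every B6 WT library (0.568% of all genes did so): the 5 named and Adgre1, Cd84, Coro1a, Ly86 and Ptprc. None of the 5 also reached in limma the minimum log2 fold change by which the study defined differentially expressed genes (0.101% of all genes met both criteria upward). With the replicate number as a block of the model, 9 genes rose (0.499% of all genes), which were the 5 and Aif1, Cd84, Ly86 and Spi1, and Ly86 also reached that fold change. The study applied its minimum to fold changes of DESeq2, not to the log2 scale used here, which understates the change of genes with low counts. In DESeq2 on the recovered reads, 5 of the 33 genes met both criteria, and the share of all genes that did is not given here. In bulk RNA, more cells of a type and more RNA per cell cannot be told apart.

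Because Fcer1g, Fcgr1, Cd53 and Irf8 rose together, the 250 bases upstream of their starts are shown, 5′ to 3′ on the strand of the gene. They are from RefSeq on GRCm38.p6, in which 26 of the 34 symbols had a promoter entry. Itgb2, which rose as well, had no entry and is not shown. They are, in order, chr1:171234350-171234599 (minus strand), chr3:96293970-96294219 (minus strand), chr3:106790150-106790399 (minus strand) and chr8:120736108-120736357 (plus strand). Capitals mark GAGGAA or its reverse complement TTCCTC, the core of many sites of the factor PU.1, searched on both strands.
Fcer1g: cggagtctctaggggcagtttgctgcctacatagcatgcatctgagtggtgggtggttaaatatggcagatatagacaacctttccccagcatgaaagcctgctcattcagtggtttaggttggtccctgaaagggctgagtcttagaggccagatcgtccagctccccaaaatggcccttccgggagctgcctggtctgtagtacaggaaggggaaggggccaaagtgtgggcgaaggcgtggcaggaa
Fcgr1: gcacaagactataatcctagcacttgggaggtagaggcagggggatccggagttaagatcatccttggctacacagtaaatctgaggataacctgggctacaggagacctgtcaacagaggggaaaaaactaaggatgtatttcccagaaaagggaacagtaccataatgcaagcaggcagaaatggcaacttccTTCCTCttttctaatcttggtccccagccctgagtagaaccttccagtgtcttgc
Cd53: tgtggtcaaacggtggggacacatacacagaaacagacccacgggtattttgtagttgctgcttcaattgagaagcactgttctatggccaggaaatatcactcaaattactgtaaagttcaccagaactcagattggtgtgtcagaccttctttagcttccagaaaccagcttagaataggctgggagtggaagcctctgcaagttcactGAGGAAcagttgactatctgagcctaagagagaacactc
Irf8: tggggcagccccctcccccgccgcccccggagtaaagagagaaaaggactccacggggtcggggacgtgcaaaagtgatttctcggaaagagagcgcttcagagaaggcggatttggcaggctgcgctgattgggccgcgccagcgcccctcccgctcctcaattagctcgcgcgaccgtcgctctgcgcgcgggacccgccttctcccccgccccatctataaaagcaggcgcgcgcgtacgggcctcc
Fcgr1 and Cd53 held 1 match each, and Fcer1g and Irf8 held 0 in these windows. Of all 32851 promoter entries 23.3% held the motif in the same 250 bases, and of the 36 entries of the listed genes 14 (38.9%) did. A match is not a measured binding site.

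Fc receptors bind the constant part of antibodies and signal through the common chain that Fcer1g encodes. Fcer1g stood at 53.7 (lowest), 66.6 (median) and 77.7 (highest) in 6 B6 WT libraries and at 116 (lowest), 133 (median) and 152 (highest) in 6 Mertk-/-V1 libraries. No library of either group reached the other, and the log2 fold change was 0.98 ± 0.12 (adjusted p = 0.00104). Fcgr1, the high-affinity receptor for IgG and 1 of the 2 genes with a match in the window shown, rose from 21.4 (lowest), 24.1 (median) and 31.1 (highest) to 43.5 (lowest), 52.8 (median) and 83.2 (highest), again without overlap (1.13 ± 0.18, adjusted p = 0.00506). The low-affinity receptor genes did not pass the test over all genes: Fcgr3 had a log2 fold change of 0.80 ± 0.19 (adjusted p = 0.0933) and Fcgr4, at only 3.70 to 18.7 in B6 WT and 8.504 to 28.4 in Mertk-/-V1, had 1.14 ± 0.34 (adjusted p = 0.287). Fcgr3 passed in DESeq2 (0.00639) and Fcgr4 did not (0.217), while both passed with the summed rod genes as a covariate (0.0289 and 0.038) or with array quality weights (0.0223 and 0.0232). The Fcgr genes resemble one another in sequence, so reads may have been split among them.

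Among adhesion and surface genes, Itgb2, the beta chain shared by the leukocyte integrins, stood at 37.7 (lowest), 59.4 (median) and 70.0 (highest) in B6 WT and at 105 (lowest), 118 (median) and 149.6 (highest) in Mertk-/-V1. The groups did not overlap, and Itgb2 rose by a log2 fold change of 1.10 ± 0.16 (adjusted p = 0.004). Cd53, a tetraspanin of leukocytes and the other gene with a match, rose from 34.5 (lowest), 51.6 (median) and 61.2 (highest) to 96.3 (lowest), 104 (median) and 173 (highest), the largest of the 5 changes (1.23 ± 0.19, adjusted p = 0.00561). Adgre1, which encodes the macrophage antigen F4/80, stood at 47.2 (lowest), 71.9 (median) and 91.4 (highest) in B6 WT and 95.6 (lowest), 122.9 (median) and 177 (highest) in Mertk-/-V1. Its groups did not overlap either, yet at 0.86 ± 0.18 its adjusted p was 0.0505, just short of the threshold, which it passed without B6 WT replicate 2 (adjusted p = 0.0373) or Mertk-/-V1 replicate 3 (0.0365). DESeq2 called Adgre1 and Cd84 (0.0013 and 0.00736). Cd84, an adhesion receptor of the SLAM family, had 1.04 ± 0.25 (adjusted p = 0.114), Ptprc had 0.65 ± 0.19 and the inhibitory collagen receptor gene Lair1 had 0.57 ± 0.26. Itgam, the partner of Itgb2 in the integrin Mac-1, stood at 336 (lowest), 778 (median) and 1265 (highest) in B6 WT. In Mertk-/-V1 it stood at 343 (lowest), 981 (median) and 1113 (highest), and the groups overlapped throughout (0.06 ± 0.38, adjusted p = 0.98). In B6 WT RPE Itgam had 28.3 RPM and Itgb2 2.23, whereas B6 WT BMDMs had 208 and 767.

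**Figure D2:**
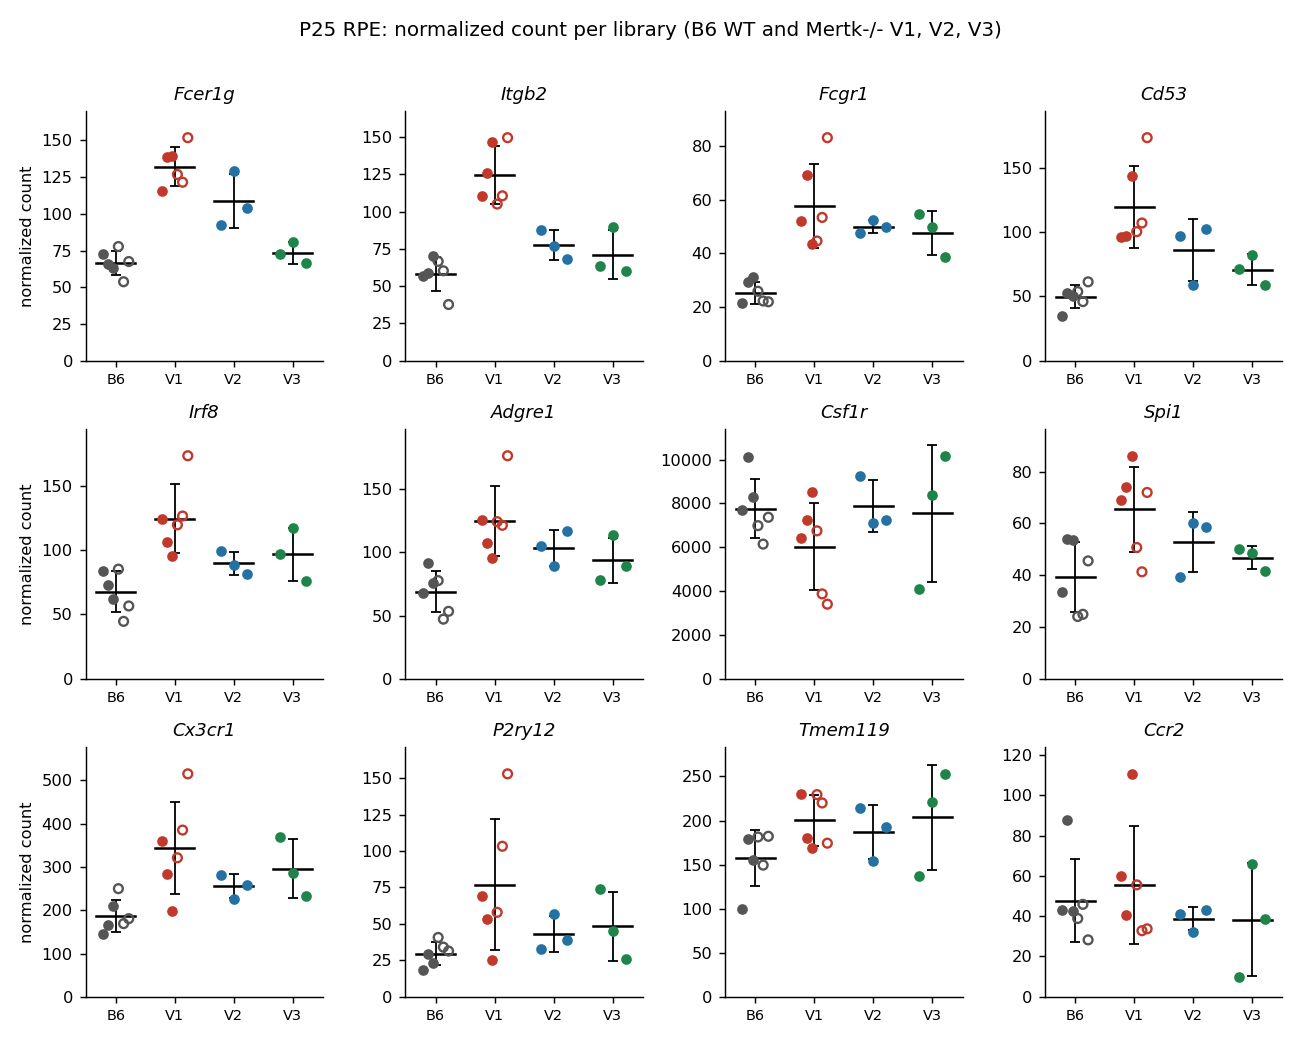
Normalized count (y axes, linear from 0) of 12 genes in each P25 RPE library of B6 WT and the 3 knockouts (n = 6, 6, 3 and 3); open points are replicates 4 to 6, bars are the mean ± SD. In the first 6 panels (Fcer1g, Itgb2, Fcgr1, Cd53, Irf8 and Adgre1) every Mertk-/-V1 point lies above every B6 WT point, while Csf1r, Tmem119 and Ccr2 overlap.

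Among lineage regulators, Irf8, a transcription factor that microglia and monocytes need for their development, rose from 44.6 (lowest), 67.4 (median) and 85.1 (highest) in B6 WT to 95.6 (lowest), 122 (median) and 173 (highest) in Mertk-/-V1 (0.88 ± 0.18, adjusted p = 0.0427). This call was the least secure of the 5, since it was lost when any of 9 single libraries was left out (B6 WT replicates 2, 3, 5 and 6 and Mertk-/-V1 replicates 1, 2, 4, 5 and 6), with adjusted p values of 0.0638 to 0.119, whereas Fcer1g, Fcgr1, Itgb2 and Cd53 passed in all 12 such fits. Spi1 stood at 24.1 (lowest), 39.5 (median) and 53.9 (highest) in B6 WT and 41.3 (lowest), 70.5 (median) and 86.1 (highest) in Mertk-/-V1, with overlap (0.76 ± 0.24, adjusted p = 0.344). It is the only one of the 34 genes on chromosome 2 (91082390 to 91115756, GRCm38). Spi1 passed with the replicate block (adjusted p = 0.0496) and not in DESeq2 (0.136). Ikzf1, which encodes the lymphoid and myeloid factor Ikaros, had 0.57 ± 0.15, Sall1 0.43 ± 0.27 and the hematopoietic factor gene Runx1 0.15 ± 0.38, none of them past the test in limma or edgeR, while DESeq2 called Ikzf1 (adjusted p = 0.0444). Csf1r had the lowest difference of the 33 genes, -0.42 ± 0.24 (adjusted p = 0.787), from 6146 (lowest), 7526 (median) and 10101 (highest) in B6 WT and 3404 (lowest), 6578 (median) and 8518 (highest) in Mertk-/-V1. Its lowest values in RPE, 3404, 3873 and 4084, belonged to the 3 libraries with the lowest RPE marker sums (119608, 148924 and 180461, against 255161 to 555058 elsewhere), and the part of those cells in the Csf1r count was not tested.

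For the homeostatic surface genes of microglia, all 8 differences lay above 0 (median 0.86 on the log2 scale), 6 had an unadjusted p under 0.05 and 0 had an adjusted p under 0.05 in limma, against 4 in DESeq2 (Cx3cr1, Fcrls, Gpr34 and P2ry12) and 0 in edgeR. Cx3cr1, the fractalkine receptor, stood at 145 (lowest), 175 (median) and 249.8 (highest) in B6 WT and at 198 (lowest), 341 (median) and 515 (highest) in Mertk-/-V1, where only replicate 3 (198) fell within the B6 WT range (0.84 ± 0.20, adjusted p = 0.0895). P2ry12, an ADP receptor by which microglia sense injury, stood at 18.7 (lowest), 30.4 (median) and 40.7 (highest) and 25.3 (lowest), 63.5 (median) and 153 (highest), and again replicate 3 was lowest in Mertk-/-V1, at 25.3, while replicates 5 and 6 were highest at 103 and 153 (1.18 ± 0.36, adjusted p = 0.317). Fcrls, an Fc receptor-like gene of microglia, had 1.17 ± 0.28 and Gpr34, a receptor for lysophosphatidylserine, 1.13 ± 0.33. P2ry13, a second ADP receptor gene, had 0.78 ± 0.29 and Siglech 0.88 ± 0.31. Tmem119 differed less, at 99.8 (lowest), 167 (median) and 182 (highest) in B6 WT and 169 (lowest), 199.99 (median) and 230.2 (highest) in Mertk-/-V1 (0.36 ± 0.18, adjusted p = 0.742), and P2ry6, a UDP receptor gene tied to phagocytosis, was at 0.01 ± 0.21. When Mertk-/-V1 replicate 3 was left out, Cx3cr1 and Fcrls passed (adjusted p = 0.014 and 0.0219), with Aif1, Adgre1 and Ly86, so that 10 genes were called (0.319% of all genes rose).

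Of the remaining groups, no gene passed in limma or edgeR, and DESeq2 called Ly86, Aif1 and Coro1a. Ly86, which encodes the MD-1 partner of CD180, had the highest difference of all 33 genes: it stood at 28.1 (lowest), 38.2 (median) and 50.2 (highest) in B6 WT and at 51.4 (lowest), 86.4 (median) and 187 (highest) in Mertk-/-V1, without overlap (1.28 ± 0.31, adjusted p = 0.115). Aif1, which encodes the actin-bundling protein IBA1 used to stain microglia, had 1.11 ± 0.24 (adjusted p = 0.0552) and passed without B6 WT replicate 4 (0.0196) or Mertk-/-V1 replicate 3 (0.0447). Cd180, the Toll-like receptor homolog that MD-1 binds, had 0.79 ± 0.25, and Coro1a, an actin regulator of leukocytes, 0.80 ± 0.21. Lyz2 had 0.55 ± 0.20, from 463 to 1034 in B6 WT to 749 to 1185 in Mertk-/-V1, and Hcls1, a substrate of leukocyte kinases, -0.19 ± 0.23. Cd14, the lipopolysaccharide co-receptor, spread from 57.1 to 356 in Mertk-/-V1, and its highest value belonged to replicate 3, the library with the most neutrophil reads (0.58 ± 0.45, adjusted p = 0.855). Neither monocyte gene was called. Ccr2, the chemokine receptor by which monocytes leave the blood, stood at 28.3 (lowest), 42.8 (median) and 87.9 (highest) in B6 WT and 32.8 (lowest), 48.1 (median) and 111 (highest) in Mertk-/-V1 (0.17 ± 0.39, adjusted p = 0.941), and Ly6c2 was low in every RPE library, at 1.31 to 10.7 in B6 WT and 2.25 to 10.4 in Mertk-/-V1; its near copy Ly6c1 may share its reads.

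**Figure D3:**
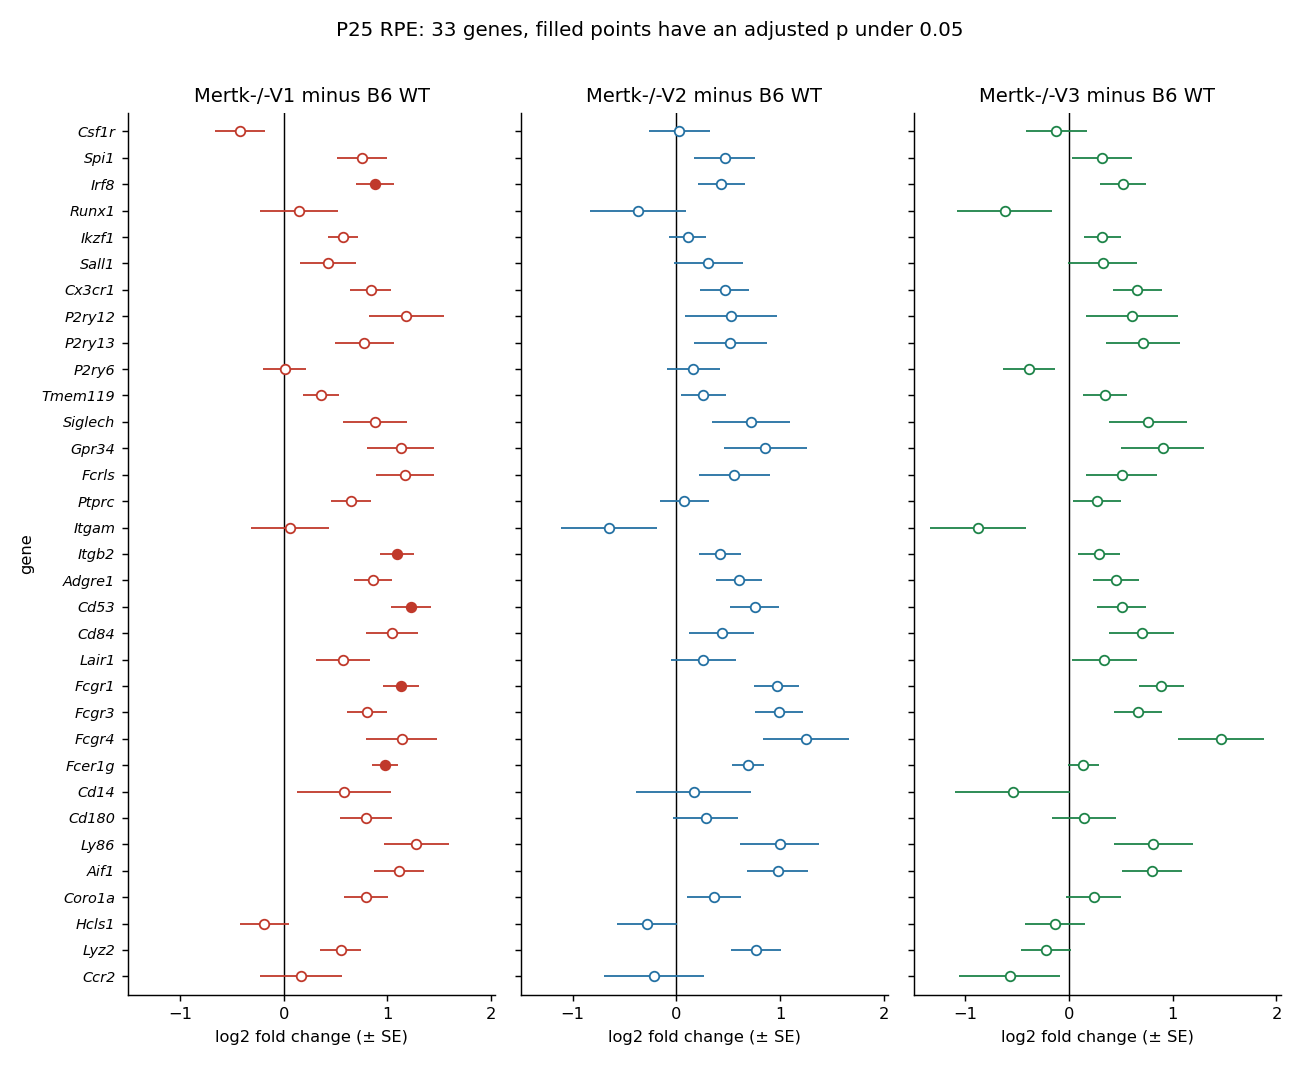
Log2 fold change against B6 WT (x axes, ± SE, log2(normalized count + 1) scale) of the 33 genes tested in P25 RPE of the 3 knockouts, ordered by role. Filled points have an adjusted p under 0.05: there are 5 in Mertk-/-V1 (Irf8, Itgb2, Cd53, Fcgr1 and Fcer1g) and 0 in Mertk-/-V2 and Mertk-/-V3, where 29 and 25 points lie above 0.

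For the 5 genes every Mertk-/-V1 library lay above every B6 WT library, so their differences had to be above 0 within both sets of replicates. Their sign there is no further evidence, and 0 of the 33 genes passed the test within either set. Within replicates 1 to 3 the log2 fold change was 0.95 for Fcer1g, 0.97 for Fcgr1, 1.03 for Itgb2, 1.27 for Cd53 and 0.57 for Irf8, and within replicates 4 to 6 it was 1.01, 1.29, 1.16, 1.19 and 1.19 in the same order. Over all 33 genes the median was 0.57 in the first set and 1.01 in the second, with 15 and 20 genes at an unadjusted p under 0.05. The median and share of all genes within each set are not given here, so these values cannot be set against them. Fcrls differed most between the sets, with 0.56 and 1.79. With the set as a term of the model 10 of the 33 genes rose, beside 0.499% of all genes in that fit. With the summed rod genes as a covariate 15 rose (beside 0.765% of all genes), and without replicates 5 and 6 of Mertk-/-V1 and replicate 1 of Mertk-/-V3 there were 4, Fcer1g, Fcgr1, Itgb2 and Cd53 (beside 0.361%). DESeq2 on the recovered reads called 16 genes, all higher (beside 0.776%), and edgeR the same 5 as limma (beside 0.308%).

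Mertk-/-V1 replicate 6 held the highest value of all 18 RPE libraries for 16 of the 33 genes, and B6 WT replicates 1, 5 and 6 held the lowest for 9, 8 and 5. Taken by genotype, the highest value lay in a Mertk-/-V1 library for 25 genes and the lowest in a B6 WT library for 27. Mertk-/-V1 and B6 WT held 6 of the 18 libraries each, and these counts were not set against those of all genes. The rod sum of Mertk-/-V1 replicate 6, 466103, was the highest of the 18 RPE libraries apart from that of Mertk-/-V1 replicate 5 (792968). Beyond the fit with the summed rod genes as a covariate, given above, the part of rod content in the values of the 33 genes was not tested. Of the B6 WT libraries, replicate 1, with the lowest values of 9 genes, had the fewest rod reads (29019), whereas replicates 5 and 6, with the lowest of 8 and 5, had the most, at 307878 and 265582 against 89464 to 118416 in replicates 2 to 4.

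Markers of other blood and vascular cells were read beside these genes. None of the 9 genes of border-associated macrophages, 3 neutrophil, 2 dendritic cell, 4 B cell, 4 mast cell, 5 endothelial, 5 red blood cell or 7 rod genes tested in RPE passed in Mertk-/-V1 at an adjusted or an unadjusted p under 0.05, while 4 of the 6 RPE marker genes were lower at an unadjusted p under 0.05 and 0 at an adjusted one. The list of border-associated macrophages summed to 3587 to 31836 in B6 WT and 4654 to 18381 in Mertk-/-V1, mostly from Cbr2. The list of neutrophils summed to 156 to 1349 and 93.3 to 2849, mostly from Ltf. In B6 WT RPE Cbr2 had 539 RPM and Mrc1 4.92, and Ltf had 22.8 and S100a8 0.197. Each of these sums thus mainly follows 1 gene and does not measure the cells. The 7 genes of T and NK cells were under the filter and summed to 8.75 to 25.8 in B6 WT and 13.4 to 51.9 in Mertk-/-V1. The RPE marker sum was 311690.0 to 555058 in B6 WT and 119608 to 387083 in Mertk-/-V1, and the part of that difference in the values above was not tested.

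Other genes of CSF1R signaling, TGF-beta signaling and myeloid identity, 24 in number with 23 tested in RPE, rose in 2 cases and fell in 0 in Mertk-/-V1 (median 0.17 on the log2 scale, 20 above 0). These were Trem2, a lipid receptor of microglia, at 30.8 to 36.3 in B6 WT and 40.3 to 143 in Mertk-/-V1 (1.23 ± 0.23, adjusted p = 0.0239), and Selplg, the selectin ligand PSGL-1, at 29.6 to 47.2 and 60.7 to 116 (1.06 ± 0.21, adjusted p = 0.0353). In Mertk-/-V2 and Mertk-/-V3 RPE 0 of the 23 genes passed in limma, with 4 and 5 at an unadjusted p under 0.05.

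In RPE of Mertk-/-V2 mice, 0 of the 33 genes passed in limma or edgeR and 3 (Fcer1g, Fcgr1 and Fcgr3) in DESeq2 (beside 0.298% of all genes), while 0.069% of all genes tested were called in limma. At an unadjusted p under 0.05 there were 10 genes, all higher (5.47% of all genes), and 29 of 33 differences were above 0 (median 0.44 on the log2 scale, against 0.02 over all genes). In 7 genes each of the 3 libraries lay above all 6 of B6 WT: Aif1, Fcer1g, Fcgr1, Fcgr3, Gpr34, Ly86 and Siglech (3.72% of all genes did so). All 4 Fc receptor genes were among the 10. The red blood cell genes summed to 30412 to 63450 in Mertk-/-V2 RPE and 7695 to 54305 in B6 WT. In Mertk-/-V1 they summed to 7336 to 79594, and in Mertk-/-V3 to 4310 to 8032. The part of blood in the differences of the 33 genes was not tested. With array quality weights 7 genes passed (Aif1, Fcer1g, Fcgr1, Fcgr3, Fcgr4, Gpr34 and Ly86), beside 4.57% of all genes in that fit. Fcer1g stood at 92.7, 129 and 104 (0.69 ± 0.15, adjusted p = 0.243) and Fcgr1 at 47.5, 52.6 and 49.9 (0.97 ± 0.22, adjusted p = 0.263), which for Fcgr1 is within the range of Mertk-/-V1. The highest difference was that of Fcgr4, at 17.7, 16.97 and 22.4 (adjusted p = 0.735), and the lowest that of Itgam, at 310.2, 415 and 666 (-0.65 ± 0.46). Lyz2 in replicate 3, at 1634, was the highest of all RPE libraries. The microglial genes Cx3cr1 (281, 227 and 258), P2ry12 (33.03, 56.9 and 38.7) and Tmem119 (214, 154 and 193) overlapped with B6 WT.

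In RPE of Mertk-/-V3 mice, 0 of the 33 genes passed in limma, edgeR or DESeq2, while 0.069% of all genes did in limma, and 10 genes, all higher, had an unadjusted p under 0.05 (11.1% of all genes). The differences of 25 genes were above 0 (median 0.34, against -0.01 over all genes), and 3 genes (Cd84, Fcgr1 and Fcgr4) lay above B6 WT in every library (2.75% of all genes did so). Fcgr1 stood at 54.7, 49.9 and 38.6 (0.89 ± 0.22, adjusted p = 0.331) and Fcgr4 at 19.0, 26.2 and 21.6 (1.46 ± 0.42, adjusted p = 0.441). Fcer1g stood at 72.5, 81.1 and 66.3, of which 2 values lay within the B6 WT range (0.14 ± 0.15). Itgam was lowest of the genes, at 586, 228 and 396 (-0.88 ± 0.46). Ccr2 spread over 10.04, 66.1 and 38.6 in the 3 libraries, and Cx3cr1 stood at 368, 287 and 233 (0.66 ± 0.24, adjusted p = 0.449). With array quality weights 27 of the 33 genes passed, 24 higher and 3 lower, beside 66.9% of all genes. Mertk-/-V3 had only replicates numbered 1 to 3. In a fit of replicates 1 to 3 of every genotype, 3 genes rose (Cx3cr1, Fcgr1 and P2ry13) and 2 fell (Itgam and Runx1), while 21.7% of all genes were called in that fit, so that the 5 of 33 were no larger a share than that of all genes.

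Each of these 3 comparisons used the same B6 WT libraries. Set against the average of the other 2 knockouts, 0 of the 33 genes differed in Mertk-/-V1 RPE in limma or edgeR and 2 (Fcer1g and Itgb2) in DESeq2 (beside 0.797% of all genes), while 0.207% of all genes did in limma. At an unadjusted p under 0.05 there were 10 genes, all higher in Mertk-/-V1 (9.56% of all genes), with a median of 0.36. Itgb2 (0.74 ± 0.16, adjusted p = 0.103), Cd53 (0.60 ± 0.19, 0.388) and Fcer1g (0.56 ± 0.12, 0.0951) had the smallest p values, and Fcgr1 had 0.20 ± 0.18 (0.747). In the fit of replicates 1 to 3 of every genotype, 4 genes were higher in Mertk-/-V1, Fcer1g (adjusted p = 0.0394), Itgb2 (0.0221), Itgam (0.0228) and Runx1 (0.0155), beside 11.3% of all genes called there. With array quality weights 7 were higher (Cd14, Cd53, Fcer1g, Fcrls, Itgam, Itgb2 and Runx1), beside 28.9% of all genes. With the summed rod genes as a covariate Fcer1g and Itgb2 passed, beside 0.828% of all genes. Of the 5 genes called against B6 WT, Fcgr1 and Irf8 thus passed against the other knockouts in none of these fits, and whether Fcer1g, Itgb2 and Cd53 did depended on the fit.

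Between the sets of replicates, 4 to 6 against 1 to 3, in the B6 WT and Mertk-/-V1 libraries of RPE, 10 of the 33 genes differed, beside the 40.6% of all genes given above, and edgeR called 9 (beside 40.8%). Hcls1, Lair1, P2ry12, P2ry13, Cd84 and Ly86 were higher in replicates 4 to 6, and Runx1, Csf1r, Itgam and Cd14 lower. Runx1 had the smallest p of the 10, with a mean of 276 against 568.3 (-1.13 ± 0.26, adjusted p = 0.00872). Of the others that were lower, Csf1r had a mean of 5755 against 8044 (adjusted p = 0.0236), Itgam of 572 against 983 (0.027) and Cd14 of 66.7 against 150.3 (0.0321). Of those that were higher, Hcls1 had a mean of 221 against 138 (adjusted p = 0.0102), Lair1 of 106 against 64.2 (0.0255) and Cd84 of 68.0 against 44.2 (0.0465). The microglial receptors P2ry12 (70.1 against 36.4, 0.0396) and P2ry13 (40.1 against 24.3, 0.0387) and the co-receptor gene Ly86 (89.3 against 52.7, 0.047) were among them. In B6 WT replicate 1, Runx1 and Itgam stood at 751 and 1265 with Cbr2, from the list of border-associated macrophages, at 30926. In B6 WT replicate 6 they stood at 146 and 336 with Cbr2 at 2679.6. Between the sets Cbr2, Mrc1 and Pf4 of that list were lower in replicates 4 to 6 (adjusted p = 0.0241, 0.0234 and 0.0077). Cd163, F13a1, Folr2, Ms4a7 and Stab1 were lower by value and did not pass, and Lyve1 was higher by value (0.133). Cbr2 had 539 RPM in B6 WT RPE and 86.5 in B6 WT BMDMs. What cells gave the reads of Runx1 and Itgam was not tested. Hcls1 and Runx1 passed whichever library was left out, but the count of 10 fell to 2 without Mertk-/-V1 replicate 3 or 5, to 5 without its replicate 2, to 4 without its replicate 6 and to 6 without B6 WT replicate 1, 5 or 6, rose to 12 without Mertk-/-V1 replicate 4, and was 0 in either genotype alone. Of the 5 genes that rose in Mertk-/-V1, none differed between the sets (adjusted p = 0.42 or more).

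In BMDMs, a culture of macrophages, the differences of the same genes from B6 WT lay between -1.68 and 0.52 on the log2 scale, most of them near 0. None of the 32 genes tested passed in limma or edgeR in any knockout, although of the 13420 genes tested limma called 7.07% in Mertk-/-V1, 4.61% in Mertk-/-V2, and 1.17% for Mertk-/-V3. In the same order DESeq2 called 0, 2 (Ccr2 and Csf1r, higher) and 3 (Ccr2 higher, Fcrls and Lair1 lower) genes, beside 9.43%, 7.33% and 3.38% of all genes. At an unadjusted p under 0.05 there were 9 genes in Mertk-/-V1 (23.6% of all genes), 7 in Mertk-/-V2 (21.4%), with 9 in Mertk-/-V3 (15.9%). The medians on the log2 scale were 0.03, 0.02 and 0.02, with 18, 17 and 18 of 32 above 0. Every library lay on 1 side of B6 WT for 11, 6 and 17 genes, beside 30.9%, 22.7% and 25.4% of all genes.

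**Figure D4:**
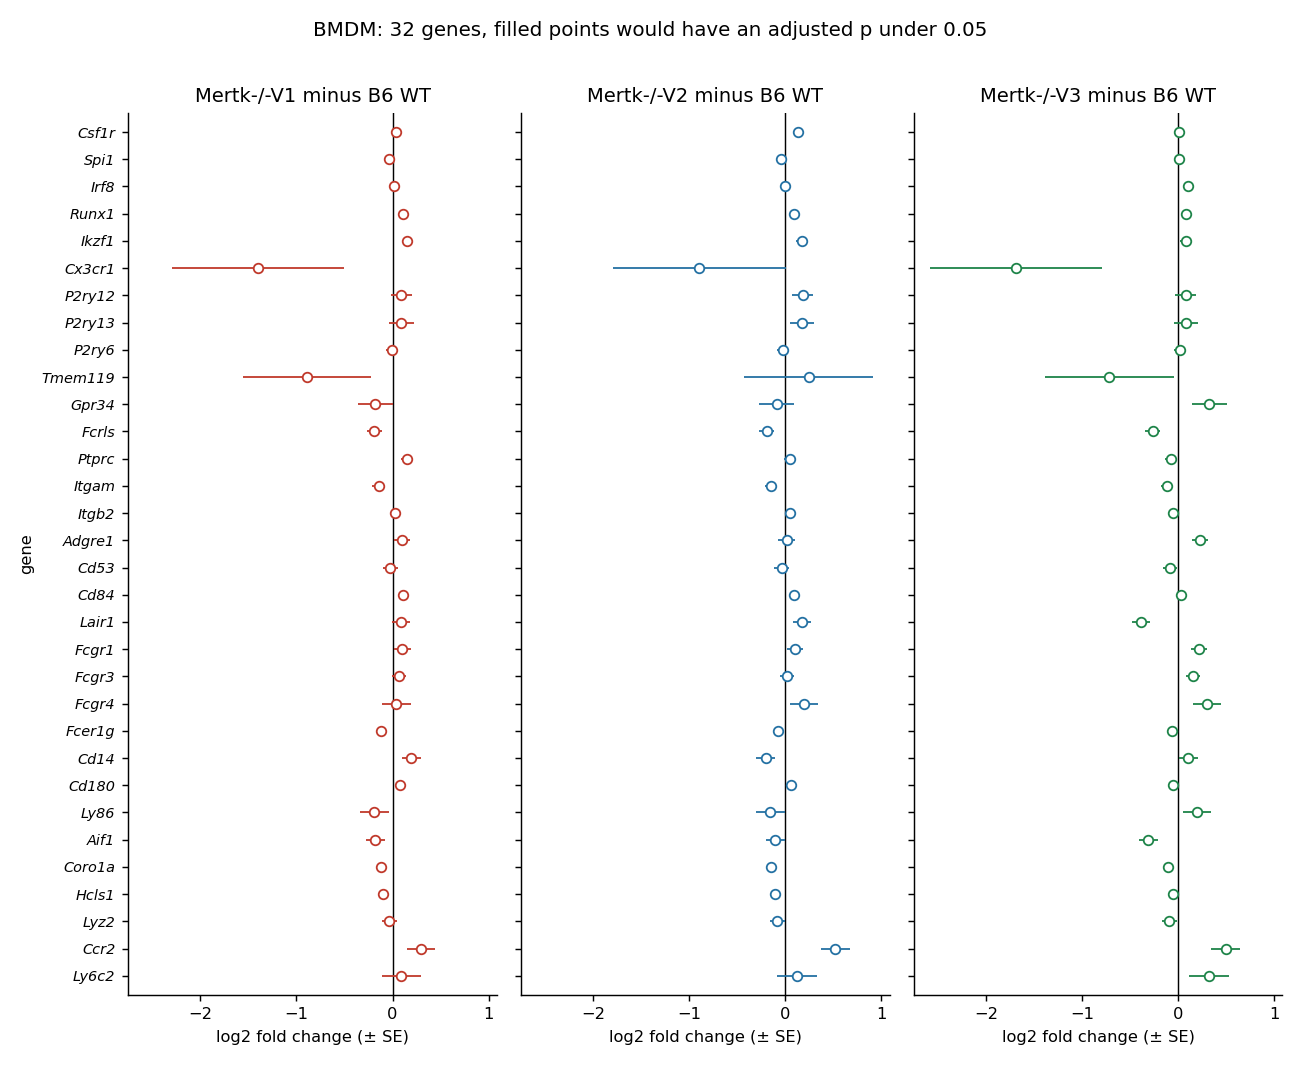
Log2 fold change against B6 WT (x axes, ± SE, log2(normalized count + 1) scale) of the 32 genes tested in BMDMs of the 3 knockouts (n = 3 each), ordered by role. No point is filled, since 0 genes had an adjusted p under 0.05, and apart from Cx3cr1 and Tmem119, whose errors are wide, the points lie close to 0.

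The receptor and the factor that define the lineage were not called in limma or edgeR, while DESeq2 called Csf1r higher in Mertk-/-V2. Csf1r stood at 27215, 28388 and 28238 in B6 WT, 28711, 28673 and 28563 in Mertk-/-V1, 29764, 29204 and 33351 in Mertk-/-V2, with 28141, 28426 and 28149 in Mertk-/-V3. Every Mertk-/-V1 and Mertk-/-V2 library lay above B6 WT, and Mertk-/-V2 replicate 3 was the highest. The log2 fold change in Mertk-/-V2 was 0.14 ± 0.05 (adjusted p = 0.145 in limma). Spi1 lay between 6919 and 7715 in all 12 libraries, with differences of -0.04, -0.04 and 0.01. Ikzf1 had 0.16 ± 0.05 in Mertk-/-V1 (adjusted p = 0.0937) and 0.17 ± 0.05 in Mertk-/-V2 (0.0863), and passed in both without B6 WT replicate 3 (0.0423 and 0.0448).

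Cx3cr1 and Tmem119 varied widely between BMDM libraries. Cx3cr1 stood at 854, 913 and 251 in B6 WT, 156, 373 and 182 in Mertk-/-V1, 106, 116 and 2468 in Mertk-/-V2, with 164, 209 and 171 in Mertk-/-V3. B6 WT replicates 1 and 2 and Mertk-/-V2 replicate 3 were high, whereas B6 WT replicate 3 lay beside the knockouts, so that every Mertk-/-V3 library, but not every Mertk-/-V1 or Mertk-/-V2 library, was below B6 WT. The log2 fold changes were -1.40 ± 0.90, -0.89 ± 0.90 and -1.68 ± 0.90 (adjusted p = 0.38, 0.611 and 0.384). Without Mertk-/-V2 replicate 3, the Mertk-/-V2 value was -2.38 and passed (0.00549). Tmem119, though low, was high in the same libraries, at 16.4, 19.6 and 5.86 in B6 WT and 8.49, 7.06 and 52.2 in Mertk-/-V2, while it stood at 7.05, 9.998 and 3.37 in Mertk-/-V1 and 4.37, 7.46 and 11.2 in Mertk-/-V3. Mertk-/-V2 replicate 3 held the highest value of the 12 libraries for 7 of the 32 genes and the lowest for 11, and its Mrc1, the mannose receptor of border-associated and cultured macrophages, was 51447. How often this library was highest or lowest over all genes was not computed.

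Of the other surface genes of microglia, P2ry12 stood at 393, 457 and 518 in B6 WT BMDMs, 525, 443 and 484 in Mertk-/-V1, 484, 465.9 and 487 in Mertk-/-V3 and 579.8, 528 and 444 in Mertk-/-V2. The groups overlapped, and in the order V1, V2 and V3 its differences were 0.09, 0.18 and 0.08. Fcrls was lower in every library of each knockout than in B6 WT: it stood at 6592, 6477 and 6891 in B6 WT, 6464, 5563 and 5491 in Mertk-/-V1, 6368, 6129.9 and 5043 in Mertk-/-V2, with 5655, 5503 and 5467 in Mertk-/-V3, with log2 fold changes of -0.19 ± 0.08, -0.19 ± 0.08 and -0.26 ± 0.08 (adjusted p = 0.154, 0.171 and 0.118). Coro1a was also below B6 WT in every library of the knockouts, with differences of -0.12, -0.15 and -0.10. Coro1a passed in Mertk-/-V2 without its replicate 3 (adjusted p = 0.0143). Gpr34 and Ly86 had their highest differences in Mertk-/-V3, 0.33 ± 0.18 and 0.20 ± 0.15. The other 9 genes tested (Cd180, Cd84, Fcgr3, Hcls1, Itgam, Lyz2, P2ry13, P2ry6 and Runx1) had differences between -0.15 and 0.17 in the 3 knockouts.

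**Figure D5:**
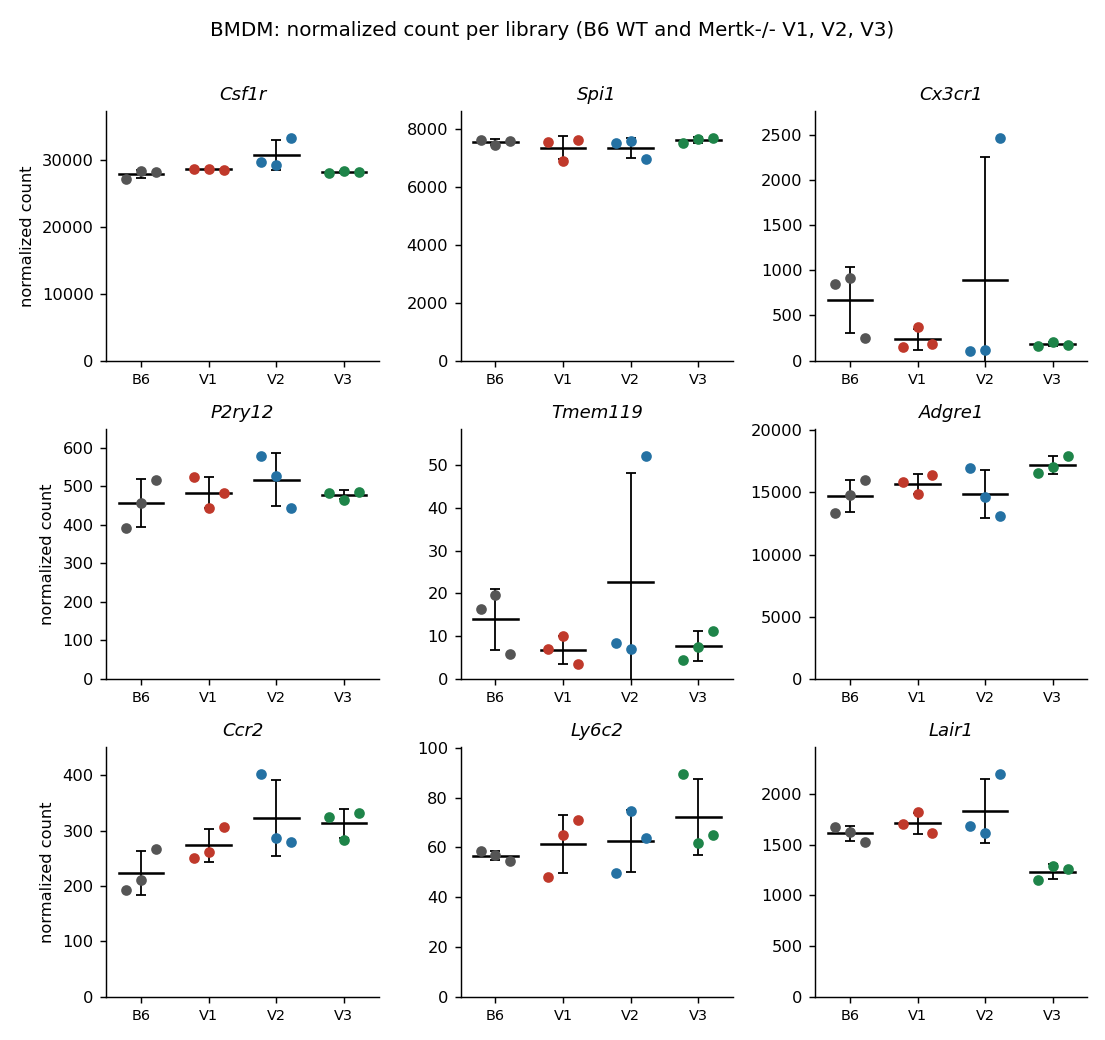
Normalized count (y axes, linear from 0) of 9 genes in each BMDM library of B6 WT and the 3 knockouts (n = 3 each); bars are the mean ± SD. Mertk-/-V2 replicate 3 is the highest point for Csf1r, Cx3cr1, Tmem119 and Lair1, and the 3 Mertk-/-V3 points are the lowest for Lair1.

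Lair1 came closest to a call of all 32 genes in Mertk-/-V3 BMDMs. It stood at 1149, 1292 and 1261 there, below 1675, 1627 and 1532 in B6 WT, 1701, 1819 and 1613 in Mertk-/-V1 and 1687, 1621 and 2200.0 in Mertk-/-V2, without overlap with any other genotype (-0.39 ± 0.09, adjusted p = 0.0643). Ccr2 stood at 192, 211 and 268 in B6 WT, 251, 262 and 307 in Mertk-/-V1, 403, 286 and 279 in Mertk-/-V2, with 324, 284 and 333 in Mertk-/-V3. Every library of Mertk-/-V2 and Mertk-/-V3 lay above B6 WT (0.52 ± 0.15, adjusted p = 0.0631, and 0.50 ± 0.15, 0.123), and in Mertk-/-V2 the gene passed without its replicate 3 (0.0281) or B6 WT replicate 3 (0.0292). Ly6c2 was between 48.1 and 89.6 in the 12 libraries.

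Among the genes that rose in Mertk-/-V1 RPE, Fcer1g in BMDMs was at 15875, 15699 and 14440.1 in B6 WT and 14854, 14311 and 13153 in Mertk-/-V1, where it was no higher (-0.12 ± 0.05, adjusted p = 0.188). The differences of Fcgr1 (0.10 ± 0.09), Itgb2 (0.02 ± 0.05), Cd53 (-0.02 ± 0.08) and Irf8 (0.02 ± 0.05) were also small beside those in RPE. Adgre1 stood at 15839, 14834 and 16396 in Mertk-/-V1 and 16939, 14609.7 and 13100.2 in Mertk-/-V2 BMDMs. It had 0.10 ± 0.08 in Mertk-/-V1 and 0.23 ± 0.08 in Mertk-/-V3, where it was higher in every library (16591, 17076 and 17948, against 13361, 14792 and 15966 in B6 WT, adjusted p = 0.2). Cd14 had 0.20 ± 0.10 in Mertk-/-V1 (7405, 7683 and 8284, against 6856, 6556 and 6957 in B6 WT) and Ptprc 0.15 ± 0.06. Aif1 was lower in Mertk-/-V3 BMDMs by value (471, 463 and 398, against 581, 537 and 528 in B6 WT, -0.31 ± 0.10, adjusted p = 0.151), whereas it was higher by value in Mertk-/-V3 RPE (0.80 ± 0.29, 0.449). Fcgr4 in Mertk-/-V3 was at 642, 599 and 726 in BMDMs, against 480.1, 474 and 649.6 in B6 WT (0.30 ± 0.15, adjusted p = 0.33). Against the average of the other 2 knockouts, 0 of 32 genes differed in Mertk-/-V1 BMDMs in limma, edgeR and DESeq2 (0.991% of all genes did in limma), with 3 at an unadjusted p under 0.05 (11.8% of all genes). Cd14 passed there without Mertk-/-V2 replicate 1 (adjusted p = 0.0491), and Lair1 and Ly86 without Mertk-/-V2 replicate 3 (0.015 and 0.00764).

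Of the other CSF1R, TGF-beta and myeloid genes, 22 were tested in BMDMs. Csf1, the growth factor of CSF1R, rose in Mertk-/-V1 (270.1, 268 and 326, against 122, 110.0 and 172 in B6 WT, 1.11 ± 0.21, adjusted p = 0.00843) and in Mertk-/-V2 (335, 279 and 175, 0.93 ± 0.21, 0.026). Csf2ra, a chain of the receptor for GM-CSF, rose in both as well (0.39 ± 0.06 and 0.26 ± 0.06), while Irf5, an interferon regulatory factor, fell in Mertk-/-V1 (-0.20 ± 0.05) and Lyn, a kinase that signals from myeloid receptors, in Mertk-/-V3 (-0.20 ± 0.04). The exons of Irf5 overlap those of Tnpo3 on the opposite strand, with a mean of 1909 in BMDMs, so reads of this pair cannot be told apart. Of the genes of border-associated macrophages, Cd163 and F13a1 rose in Mertk-/-V1, Cd163 in Mertk-/-V2, and Ms4a7 fell in Mertk-/-V3, while the list summed to 203314 to 254557 in B6 WT and 243099 to 254002 in Mertk-/-V1. The RPE genes Rpe65, Lrat and Ttr were at 0 in all BMDM libraries.

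Whether a knockout acted differently in the 2 tissues was tested as the difference of its effects in 1 edgeR model of all 30 libraries. The Mertk-/-V1 effect was larger in RPE than in BMDMs for 4 of the 34 genes, Fcer1g, Itgb2, Cd53 and Fcgr1, and smaller for 0 (0.158% of all 20873 genes tested differed), with 21 genes at an unadjusted p under 0.05 (7.04% of all genes). The differences of effects were 1.13 for Fcer1g (adjusted p = 0.000219), 1.09 for Itgb2 (0.00831), 1.32 for Cd53 (0.0146) and 1.08 for Fcgr1 (0.0279) on the log2 scale. Fcer1g passed whichever library was left out. Itgb2 was lost without Mertk-/-V1 BMDM replicate 1 (adjusted p = 0.0635), Cd53 without B6 WT BMDM replicate 3 or any of the 3 Mertk-/-V1 BMDM libraries (0.0524 to 0.0701), and Fcgr1 without any of the 6 B6 WT or Mertk-/-V1 BMDM libraries or B6 WT RPE replicate 1, 5 or 6 (0.0572 to 0.0904). Without Mertk-/-V1 RPE replicate 3 there were 7 genes, with Aif1, Fcrls and Ly86 added. For Mertk-/-V2, 0 of 34 genes differed in edgeR (0.0431% of all genes), 8 at an unadjusted p under 0.05 (8.54%) and 4 in DESeq2 (Aif1, Fcer1g, Fcgr1 and Fcgr3, beside 1.08% of all genes). Fcer1g had 0.80 there (adjusted p = 0.0526), and passed without B6 WT RPE replicate 4 (0.0484) or Mertk-/-V2 RPE replicate 1 (0.0237), while Cx3cr1 passed without Mertk-/-V2 BMDM replicate 3 (0.0241). For Mertk-/-V3, 0 genes differed in edgeR (0.0192% of all genes), 6 at an unadjusted p under 0.05 (4.82%) and 1 in DESeq2 (Aif1, beside 0.111% of all genes).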

How the data were processed

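RNA of P25 RPE (18 libraries) and of BMDMs (12 libraries) was made into polyA libraries and sequenced in pairs. According to the study, the authors trimmed reads, aligned them with STAR to GRCm38 and deposited counts normalized by DESeq2, so each deposited value is a signal, a read count divided by 1 factor per library, scaled in each tissue separately. The read counter, its use of strand, the annotation and the versions are not given in the sources used here.

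Division by the value of 1 read in each library gave whole reads for 100% of the values of the 55573 genes, with a largest deviation of 0.0005 of a read. Tests were run on log2(normalized count + 1) with limma 3.58.1 in R 4.3.3 (lmFit, eBayes with trend), with the 4 genotypes of a tissue in 1 model, keeping genes whose mean normalized count was 10 or more, with Benjamini-Hochberg adjustment over all genes tested and a threshold of 0.05. Recovered reads were tested with the quasi-likelihood test of edgeR 4.0.16 and with DESeq2 1.42.0 as alternatives, and edgeR tested the difference of effects between tissues. Same-numbered B6 WT and Mertk-/-V1 libraries of RPE deviated together from their group means (correlations of 0.12 to 0.72, all 6 pairs over 0.1), as did most with another number of the same set of replicates (-0.18 to 0.74, 8 of 12), so the replicate block is given beside that comparison. The labels give no source of the pairing, and in every other pair of genotypes at least 1 same-numbered correlation was under 0.1. No covariate was used, and no library was dropped in the tests the report leads with. Levels (RPM and RPKM) used recovered reads and merged exons of GENCODE M21, in which 55394 gene identifiers were found. Scripts were tested on simulated data. The 34 genes and the other lists were chosen with earlier results of these data known. Every gene of the 34 was accounted for, with full values for those past the threshold, for the largest difference in each role and for Csf1r, Spi1, Cx3cr1, P2ry12, Tmem119, Adgre1, Ccr2 and Ly6c2. Depth limits genes with few reads, and floors cover counting error only.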

Additional observations from a re-analysis of the deposited data

Results flagged for a closer look

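Within groups of 6 RPE libraries, 6 of 65 gene and group pairs had 1 library far from the others by Dixon's test (ratio above 0.625), and chance alone gives about 1 in 20. In Mertk-/-V1, replicate 3 was highest for Ccr2 (111), Cd14 (356) and Ptprc (205), and replicate 6 was highest for Adgre1 (177). In B6 WT, replicate 2 was highest for Ccr2 (87.9) and replicate 6 was lowest for Ptprc (56.5). Replicate 3 of Mertk-/-V1 was also the library with the highest neutrophil sum, and the part of such cells in its values was not tested.

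The Mertk-/-V1 effect differed between tissues for 4 genes in edgeR. On the log2 scale it was larger in RPE than in BMDMs by 1.13 for Fcer1g, 1.09 for Itgb2, 1.32 for Cd53 and 1.08 for Fcgr1.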

How the results depend on the processing

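Counts of genes called are given for the alternatives that moved them by over 1.5 times; the cause was not tested. Fits of replicates 1 to 3 only, with the summed rod genes, or without Mertk-/-V1 replicates 5 and 6 and Mertk-/-V3 replicate 1 were chosen after the data were seen.

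For Mertk-/-V1 against B6 WT in RPE (5 called, 0 also past the fold criterion), DESeq2 called 16 and 5, the set of replicates as a term 10 and 1, the rod covariate 15 and 0, and fits within replicates 1 to 3 or within 4 to 6 called 0. Array quality weights, edgeR and total-count scaling each gave 1 gene past the fold criterion. Against the other knockouts (0 and 0), DESeq2 called 2, array weights 7 and 2, replicates 1 to 3 alone 4 and 1, and the rod covariate 2. For Mertk-/-V2 (0 and 0), DESeq2 called 3 and array weights 7 and 1. For Mertk-/-V3 (0 and 0), array weights called 27 (24 higher and 3 lower, beside 66.9% of all genes) and 4, and replicates 1 to 3 alone 5 and 1. Between the sets (10), leaving out the filter gave 6 and either genotype alone 0. In BMDMs (0 and 0 throughout), array weights called 8 and 1 in Mertk-/-V1, 2 in Mertk-/-V2, and 12 and 1 in Mertk-/-V3, fits of the compared groups alone 2 in Mertk-/-V1 and 3 and 1 in Mertk-/-V3, and DESeq2 2 in Mertk-/-V2 and 3 in Mertk-/-V3. For the difference between tissues, DESeq2 called 11, 4 and 1 genes for the 3 knockouts (4, 0 and 0 in edgeR), beside 0.938%, 1.08% and 0.111% of all genes. RPE replicates 1 to 3 with all BMDMs gave 2 for Mertk-/-V2 and 4 for Mertk-/-V3, and the libraries of B6 WT and Mertk-/-V1 alone gave 2. The shares of all genes in these last fits are not given here.

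The replicate block raised the count for Mertk-/-V1 in RPE to 9 (1 past the fold criterion). In the other comparisons the libraries shared only a number, since at least 1 same-numbered correlation of each pair of genotypes was under 0.1 (-0.46 to 0.59 in RPE outside B6 WT and Mertk-/-V1, -0.30 to 0.36 in BMDMs). With the block 2 genes were called there for Mertk-/-V2 in RPE (beside 3.75% of all genes), 10 for Mertk-/-V3 (1 past the fold criterion, 29.8%), 6 against the other knockouts (2, 12.4%), and 7, 1 and 4 for the differences between tissues (0.278%, 0.417% and 6.59%), while BMDM counts stayed at 0. Not every library correlated best with its own number.

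With 1 library left out, counts ranged from 4 to 10 for Mertk-/-V1 in RPE (0 to 2 past the fold criterion), from 2 to 12 between the sets, from 0 to 1, 0 to 3 and 0 to 2 in BMDMs for Mertk-/-V1, Mertk-/-V2 (0 to 1) and Mertk-/-V1 against the others, and from 1 to 7 and 0 to 1 for the tissue difference of Mertk-/-V1 and Mertk-/-V2. Over all alternatives and all members tested, 27 calls of single genes between genotypes were lost and 160 gained among 5276 values, 83 were lost and 9 gained among 561 between the sets of replicates, and 17 were lost and 33 gained among 2030 for the differences between tissues. No call changed sign, and of the gained ones Hcls1 in Mertk-/-V3 RPE with array weights (0.34, adjusted p = 0.0352) had the sign opposite to its value of -0.13.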
